A study of Homo sapiens with 4 samples.

Results

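The 10 genes described here encode the core survival and death proteins of the BCL2 family: BCL2, BCL2L1, MCL1, BCL2A1, BAK1, BID, BCL2L11, BIK, BMF and BAD. They were taken by gene symbol from a table of read counts for 25369 genes, and all 10 were found. Polyadenylated RNA was sequenced from H226 cells, a human line established from lung squamous cell carcinoma, which carry a doxycycline-inducible short hairpin RNA. In 2 cultures (shControl) the hairpin was non-targeting, and in 2 cultures (shp63) it was directed against p63 (gene TP63), a relative of p53 that binds DNA and upholds basal and squamous epithelial identity. Doxycycline (1 µg/mL, 6 days) was given to both groups alike. The submitters call the 2 samples of a group independent biological replicates. The labels name 1 construct per group, so an effect of the hairpin sequence and an effect of lower p63 cannot be told apart.

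BCL2 family proteins decide whether the outer mitochondrial membrane is permeabilised, the step that releases cytochrome c and commits a cell to apoptosis. Survival members (BCL2, BCL-XL, MCL-1 and BFL-1/A1) hold the effectors BAK and BAX in check. BH3-only members such as BIM, BID, BMF, BIK and BAD bind the survival proteins, or activate the effectors directly, and so tip the balance towards death. BCL-XL and MCL-1 are widely expressed in squamous epithelia, and BIM and BMF are best known as sensors of lost growth factor signalling and lost attachment to matrix.

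The libraries held 51926832 to 53924761 counted reads and levels are given as CPM, reads scaled to library size with TMM composition factors. TP63 checks the hairpin: it had 7533 and 7364 reads in shControl and 1596 and 1530 in shp63. Markers of the labelled squamous type were present but incomplete. In shControl KRT5 stood at 757 CPM, KRT17 at 3897 CPM, KRT14 at 4.35 CPM and SOX2 at 0.229 CPM. Of 10 such markers, TP63 included, 8 were called lower in shp63 and 2 higher. SOX2, with 14 and 11 reads in shControl and 1 and 3 in shp63, passed the low-count filter only through shControl. The mesothelial markers MSLN, UPK3B and KRT7 were abundant as well, while CALB2, WT1, LRRN4 and PDPN were under 1 CPM in every library. Most genes differed between the groups: 74.0% of the 14901 genes tested were called by edgeR's quasi-likelihood test (Benjamini-Hochberg adjusted p under 0.05), 36.9% higher and 37.1% lower in shp63. In RNA from whole cultures, a change in how many cells express a gene and a change in RNA per cell cannot be told apart.

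Of the 10 members 7 were higher in shp63, 1 was lower and 2 did not pass the test. The 8 members called (80.0%) stand near the 74.0% of all tested genes, so the number called is not a result about the family. The median log2 fold change (shp63 minus shControl) was 0.23 over the members and -0.01 over all tested genes, and the median absolute change was 0.34 against 0.36. BCL2A1 passed the low-count filter only through the shp63 libraries; without it the counts were 6 higher, 1 lower and 2 not called, with a median of 0.14. Against a 1.5-fold change (glmTreat), 2 members were called, BCL2A1 and BMF, both higher, where 22.7% of tested genes were called. When libraries were scaled by their totals with no composition factor, 5 members were called higher and 2 lower, against 7 and 1 with TMM. Calls over all 14901 tested genes moved the same way, to 4658 higher and 6592 lower, against 5499 and 5534 with TMM.

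**Figure D1:**
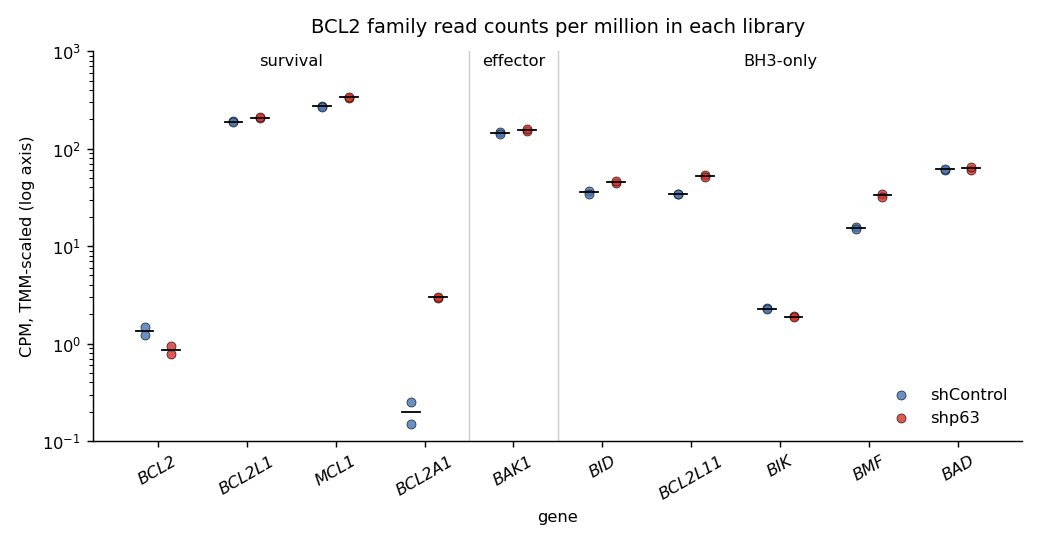
TMM-scaled CPM (y axis, log scale) of each member in every library, with shControl in blue and shp63 in red; points are libraries and black bars are group means of 2. BCL2L1, MCL1 and BAK1 lie above 100 CPM in all 4 libraries, and BCL2A1 moves from under 1 CPM to about 3 CPM.

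Levels can be compared between genes only per length, so CPM was divided by the length of each gene's canonical transcript in kilobases (RPKM). In shControl the order was BCL2L1 (73.4 ± 0.713 RPKM, SD, n = 2), MCL1 (68.6 ± 0.815), BAK1 (66.9 ± 1.81), BAD (65.8 ± 1.44), BID (16.4 ± 0.717), BCL2L11 (6.76 ± 0.0299), BMF (3.27 ± 0.0692), BIK (2.40 ± 0.0428), BCL2A1 (0.257 ± 0.094) and BCL2 (0.197 ± 0.0258). The libraries of 3 neighbouring pairs overlapped: MCL1 with BAK1, BAK1 with BAD, and BCL2A1 with BCL2. The survival genes BCL2L1 and MCL1, the effector gene BAK1 and the BH3-only gene BAD thus stood highest among the 10 members, and BCL2 and BCL2A1 lowest. In shp63 MCL1 (85.2 ± 0.943 RPKM) stood first and BCL2L1 (80.8 ± 1.53 RPKM) second, and BCL2A1 (3.81 ± 0.0284 RPKM) stood above BIK (1.98 ± 0.0358 RPKM). The order at the top depends on the length used: with the union of all annotated exons BAK1 came first in both groups (65.6 RPKM in shControl), before BCL2L1 (45.0 RPKM) and MCL1 (43.6 RPKM).

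Among the survival genes BCL2A1 changed most. BCL2A1 encodes BFL-1/A1, a survival protein best known in leukocytes and as a target of NF-kB, and lies on chromosome 15 from 80253234 to 80263538 on the minus strand (GRCh37, GENCODE v44). In shControl it had 14 and 8 reads, in shp63 154 and 150. The groups lay far apart, and the replicates of shp63 were nearly equal. Its level was 0.201 ± 0.0733 in the control and 2.98 ± 0.0222 in shp63 (CPM, SD, n = 2 each), 14.6-fold higher (log2 fold change 3.87, SE 0.233, adjusted p = 1.38e-12, edgeR quasi-likelihood test with Benjamini-Hochberg adjustment). Of all tested genes 99.6% had a smaller absolute log2 fold change, yet in shp63 the transcript was still far below BCL2L1 and MCL1 in RPKM. BCL2A1 passed the low-count filter only through the shp63 libraries, where it is high. Its rank and adjusted p therefore describe the gene and are not further support for the rise.

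Leukocyte markers moved in the same libraries as BCL2A1. Of 12 markers only 5 were tested, with 4 called higher and 1 (ITGAM) lower. The summed level of all 12 came to 14.95 to 16.41 CPM in shControl and 81.62 to 85.28 CPM in shp63, carried by CD14, CD68 and CSF1R. LYZ, also called higher, had 1 read in each shControl library and 33 and 21 reads in shp63 (0.526 CPM). It passed the low-count filter only through shp63. The defining leukocyte marker PTPRC (CD45) had 6 and 4 reads in shControl and 8 and 6 in shp63. MS4A1 and FCGR3A had no read in any library, and 9 of the 12 markers, LYZ and ITGAM among them, were under 1 CPM in every library. The sum of 6 endothelial markers came to 59.9 to 64.98 CPM in shControl and 189.9 to 191.4 CPM in shp63, of which CDH5 made up 187 CPM. PECAM1 was called higher too (1.04 and 1.89 CPM) and VWF lower (4.66 and 1.30 CPM), while KDR, TEK and CLDN5 were under 1 CPM. Summed mesothelial markers stood at 1541 to 1586 CPM in shControl and 2466 to 2523 CPM in shp63. Summed fibroblast markers stood at 97.19 to 102.0 CPM in shControl and 67.16 to 75.28 CPM in shp63. Of this COL1A1 made up 98.7 and 70.7 CPM, and the other 7 fibroblast markers were under 1 CPM in every library. The part of these markers in the member changes was not tested.

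BCL2A1 and BMF were the members called against a 1.5-fold change. BCL2L11, the member with the next largest rise, was not called in that test and was added by choice. The sequences before the start sites of these 3 genes are shown. They are the bases upstream of the RefSeq start (RefSeq promoter table, GRCh38.p14), each of which matched the same chromosome of GRCh37 at 1 place, printed 5′ to 3′ on the strand of the gene. Capitals mark a motif match that lies wholly within the printed run. For BMF, which has a pair of RefSeq starts, the outer start is shown, without 13 bases that GENCODE places in an exon.
BCL2A1, chr15:80263539-80263788, minus strand: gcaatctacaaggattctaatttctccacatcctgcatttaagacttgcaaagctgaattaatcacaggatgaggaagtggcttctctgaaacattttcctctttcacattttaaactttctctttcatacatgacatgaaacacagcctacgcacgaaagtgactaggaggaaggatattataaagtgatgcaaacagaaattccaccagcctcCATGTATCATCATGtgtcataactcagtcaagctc
BMF, chr15:40401094-40401330, minus strand: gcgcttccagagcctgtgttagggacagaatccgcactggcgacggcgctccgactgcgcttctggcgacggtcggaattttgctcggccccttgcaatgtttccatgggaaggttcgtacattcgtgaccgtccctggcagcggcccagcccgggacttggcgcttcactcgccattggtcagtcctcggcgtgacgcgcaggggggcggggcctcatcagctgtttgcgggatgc
BCL2L11, chr2:111878241-111878490, plus strand: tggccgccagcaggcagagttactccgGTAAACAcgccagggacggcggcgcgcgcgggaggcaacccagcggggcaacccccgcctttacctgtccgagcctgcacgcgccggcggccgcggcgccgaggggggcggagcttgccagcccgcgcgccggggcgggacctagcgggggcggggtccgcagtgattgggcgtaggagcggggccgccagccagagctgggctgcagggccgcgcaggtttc
The 3 sequences differ in base composition, with 38.8% G and C for BCL2A1, 64.6% for BMF and 76.8% for BCL2L11.

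A set of 5 motifs was searched on both strands in the 250 bases before each RefSeq start, over 35091 promoter sequences. The core of a p53 family site in its CATG form (CATG, any 6 bases, CATG, which overlaps the full consensus as its inner part) occurred in 0.296% of promoters and in BCL2A1, beginning 35 bases before the start. At the 12 other positions of the full p53 family consensus that match fits at 5, and no member matched the full consensus, which occurred in 0.0171% of promoters. The FOXO motif GTAAACA, present in 2.98% of promoters, occurred in BCL2L11 223 bases before the start. The kappa B consensus, present in 9.95% of promoters, occurred in BMF as GGGATGCCCC beginning 20 bases before the outer start, partly within the stretch not printed, so its first bases end the printed run in lower case. The AP-1 motif TGANTCA, present in 6.57% of promoters, occurred in none of the member sequences searched, and the inner BMF start had none of the 5 motifs. The table held 8 of the 10 members; MCL1 and BIK were not among them. These matches describe letters only: no binding was measured in these samples.

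MCL1, a short-lived survival protein that binds BAK and BIM, lies on chromosome 1 from 150533371 to 150552214 (minus strand). It measured 273 and 269 CPM in shControl and 334 and 339 CPM in shp63. The groups did not overlap, and the difference was a 1.24-fold higher level in shp63 (log2 fold change 0.31, SE 0.0295, adjusted p = 3.16e-09, edgeR with Benjamini-Hochberg). BCL2L1, whose main product is BCL-XL, lies on chromosome 20 from 30252255 to 30311792 (minus strand). It measured 190.2 and 188 CPM in shControl and 205 and 211 CPM in shp63, a 1.10-fold higher level (log2 fold change 0.14, SE 0.0293, adjusted p = 0.000209). With libraries scaled by their totals this small difference was 0.05 and not called (adjusted p = 0.0915, edgeR with Benjamini-Hochberg; range over the alternatives 4.42e-06 to 1). Counts per gene do not separate the long survival forms of BCL2L1 and MCL1 from their short, death-promoting splice forms.

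BCL2, the founding survival gene, was the one member called lower. It lies on chromosome 18 from 60790579 to 60987361 (minus strand) and was scarce, with 82 and 66 reads in shControl and 41 and 47 in shp63. Every shp63 library lay below every shControl library, at 0.863 ± 0.106 against 1.35 ± 0.178 CPM (SD, n = 2 each). The log2 fold change was -0.65 (SE 0.205, 95% interval -1.08 to -0.23, adjusted p = 0.00696, edgeR with Benjamini-Hochberg), a 1.57-fold lower level. DESeq2 did not call it (adjusted p = 0.113), and neither did edgeR without shControl replicate 1 (-0.52, adjusted p = 0.0685) or without shp63 replicate 1 (-0.53, adjusted p = 0.07), in a range over the alternatives of 0.00234 to 0.552.

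BAK1, the effector among the members, encodes BAK, which forms pores in the outer mitochondrial membrane. It lies on chromosome 6 from 33540324 to 33548070 (minus strand). It measured 148 and 142 CPM in shControl and 153 and 157 CPM in shp63. The groups were close but did not overlap (log2 fold change 0.10, SE 0.0315, 95% interval 0.03 to 0.16, adjusted p = 0.0089, edgeR with Benjamini-Hochberg). The call was lost with library totals (0.01, adjusted p = 0.803), without shControl replicate 2 (0.06, adjusted p = 0.229) and without shp63 replicate 2 (0.08, adjusted p = 0.0508), in a range over the alternatives of 0.00238 to 1.

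Of the 5 BH3-only genes 3 rose, 2 did not pass the test and none fell; the share called, 60.0%, was below the 74.0% of all tested genes, and with library totals BIK was called lower. BMF, whose protein is held on the actin-bound myosin V motor and is released in detached cells, rose most. It lies on chromosome 15 from 40380091 to 40401093 (minus strand). It had 863 and 812 reads in shControl and 1799 and 1587 in shp63. Both shp63 libraries lay above both shControl libraries, and the fitted level was 2.16-fold higher, at 33.1 ± 2.07 against 15.3 ± 0.325 CPM (SD, n = 2 per group; log2 fold change 1.11, SE 0.0551, adjusted p = 4.35e-14, edgeR with Benjamini-Hochberg). Over all runs the log2 fold change was 1.02 to 1.17 for BMF and 3.54 to 4.29 for BCL2A1. Both genes were called in every alternative that kept all 4 libraries. BCL2A1 passed the low-count filter only through the shp63 libraries, where it is high, so its repeated calls are not independent support.

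BCL2L11 encodes BIM, a BH3-only protein that binds all survival members and whose gene is a known FOXO3 target. It lies on chromosome 2 from 111876955 to 111926021 (plus strand). It measured 34.5 and 34.3 CPM in shControl and 53.7 and 50.7 CPM in shp63. The groups were well separated, with a 1.52-fold higher level in shp63 (log2 fold change 0.60, SE 0.0398, adjusted p = 7.66e-12, edgeR with Benjamini-Hochberg). BID, which caspase-8 cleaves to carry a death receptor signal to mitochondria, lies on chromosome 22 from 18216904 to 18257536 (minus strand). It measured 36.9 and 34.7 CPM in shControl and 44.9 and 46.8 CPM in shp63, without overlap (1.28-fold higher, log2 fold change 0.36, SE 0.0394, adjusted p = 3.69e-08).

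BIK and BAD did not pass the test. BIK, a BH3-only protein of the endoplasmic reticulum (chromosome 22 from 43506756 to 43525718, plus strand), had 128 and 121 reads in shControl and 99 and 93 in shp63. Its shp63 libraries lay below shControl, but the log2 fold change of -0.28 had a 95% interval of -0.58 to 0.03 (adjusted p = 0.0907, edgeR with Benjamini-Hochberg). With library totals it was called lower (-0.37, adjusted p = 0.0291; range over the alternatives 0.0291 to 1). BAD, which is held inactive by AKT phosphorylation and 14-3-3 binding, lies on chromosome 11 from 64037302 to 64052176 (minus strand). It measured 60.2 and 62.1 CPM in shControl and 60.2 and 65.5 CPM in shp63, and it was the only member whose groups overlapped. The 95% interval of its log2 fold change was -0.06 to 0.14 (estimate 0.04, adjusted p = 0.436, edgeR). Without shp63 replicate 1 it was called higher (0.10, adjusted p = 0.0339; range over the alternatives 0.0339 to 1).

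**Figure D2:**
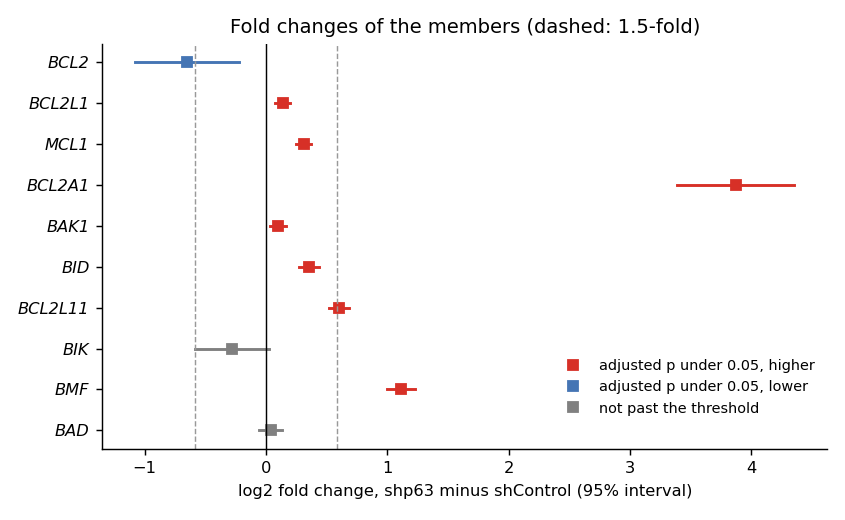
Log2 fold change of each member (x axis, shp63 minus shControl) with its 95% interval from the edgeR fit of 2 against 2 libraries; red and blue mark members called higher and lower, grey those not called, and dashed lines a 1.5-fold change. The intervals of BCL2A1 and BMF lie wholly beyond 1.5-fold, those of BCL2 and BCL2L11 span a dashed line, and the others lie between the dashed lines.

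Some exons of the members are shared with other genes in GENCODE v44, and the strand setting of the counting is not given in the sources used here. GPR137 covers 23.7% of the exon bases of BAD on the opposite strand, and ABALON, which has no row in the table, covers 41.3% of those of BCL2L1. The overlaps of BCL2L11 (10.8%, MIR4435-2HG), BMF (8.5%, BMF-AS1), MCL1 (5.3%, ADAMTSL4-AS1, on the same strand) and BAK1 (4.1%, GGNBP1) were smaller. Counts of these genes are uncertain to that extent, and BCL2, BCL2A1, BID and BIK shared no exon base with another gene.

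**Figure D3:**
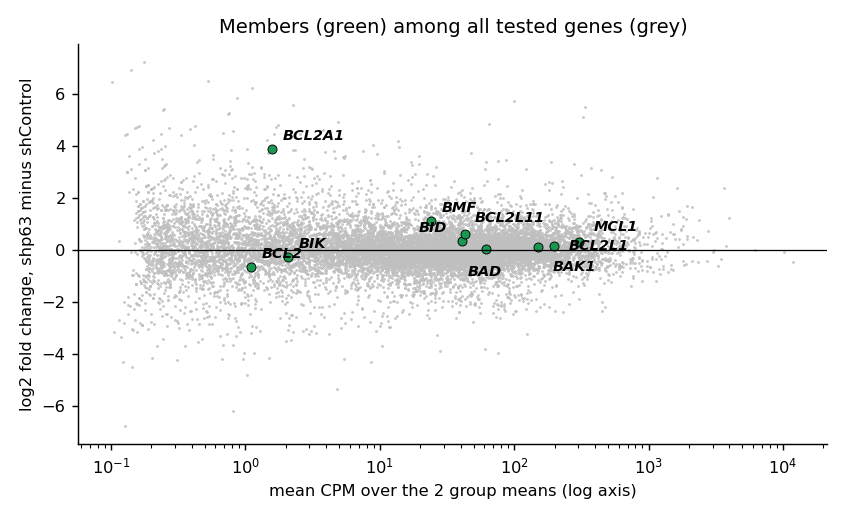
Log2 fold change (y axis, shp63 minus shControl) against mean CPM (x axis, log scale) for all 14901 tested genes in grey and the 10 members in green. BCL2A1 lies high in the grey cloud at low abundance, BMF above its middle, and the abundant members BCL2L1, MCL1, BAK1 and BAD within it.

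Ratios of reads between partner genes inside a library do not depend on how libraries are scaled. They are given without a test, and only their change is meaningful because the genes differ in length. MCL1 had 1.85 and 1.89 reads per BAK1 read in shControl and 2.18 and 2.16 in shp63. BCL2L1 had 1.28 and 1.32 reads per BAK1 read in shControl and 1.34 and 1.34 in shp63, a 1.03-fold change. The ratio of MCL1 to BAK1 was 1.16-fold higher in shp63. These ratios are to BAK1 alone: the other effector gene, BAX, fell 1.75-fold.

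The ratios of BMF and BCL2L11 to MCL1 were higher in shp63; those of the other BH3-only members were not computed. BMF had 0.0569 and 0.0562 reads per MCL1 read in shControl and 0.103 and 0.0932 in shp63, a 1.74-fold higher ratio. BCL2L11 had 0.126 and 0.128 reads per MCL1 read in shControl and 0.161 and 0.149 in shp63, 1.22-fold higher. BCL2 lost on BAK1, at 0.00999 and 0.00862 reads per BAK1 read in shControl and 0.00514 and 0.00596 in shp63, and MCL1 gained on BCL2L1, from 1.44 and 1.43 to 1.63 and 1.61 reads per read. In each of the 6 pairs the groups did not overlap, and the share for ratios of other gene pairs was not computed. For the CPM of single genes, the groups did not overlap in 86.4% of all tested genes and in 9 of the 10 members.

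**Figure D4:**
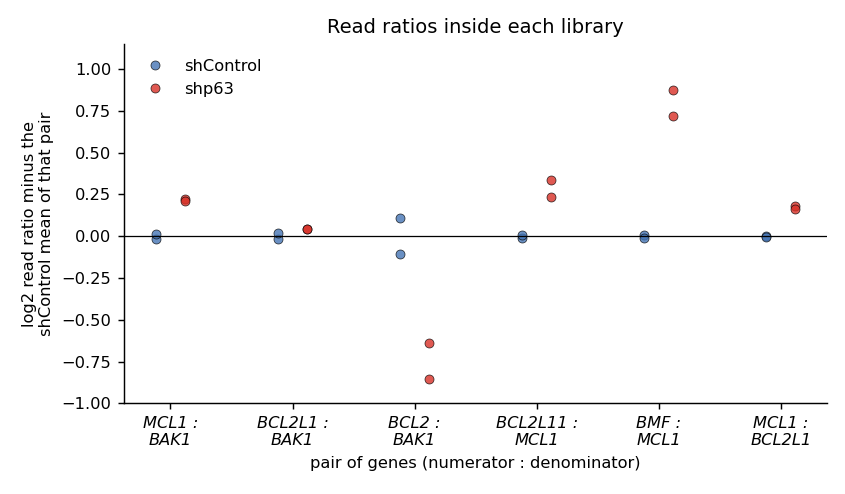
Log2 ratio of reads between 2 genes inside each library, minus the shControl mean of that pair (y axis), for 6 pairs (x axis); each point is a library. The shp63 libraries lie above shControl for 5 pairs, most for BMF to MCL1 (0.80 on average), and below for BCL2 to BAK1 (-0.74).

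The genes most like the extreme members across the 4 libraries were found by the Euclidean distance of log2 (CPM + 0.5), centred per gene, with 11048 candidates whose mean level was 5 CPM or more. Nearest to BCL2A1 were SERPINA1 (distance 0.133, 2.28 and 14.6 CPM), C4orf26 (0.134, 2.57 and 14.8 CPM) and ALDH1A2 (0.139, 1.79 and 10.8 CPM). Nearest to BCL2 were TBPL1 (0.0406, 17.4 and 12.8 CPM), DYNLL1-AS1 (0.053, 18.6 and 13.9 CPM) and DUOX2 (0.0594, 7.47 and 5.21 CPM). These distances rest on 4 libraries in 2 groups, so they mainly reflect the size of the group difference, which the offset of 0.5 CPM makes smaller for scarce genes such as BCL2A1 and BCL2.

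Other BCL2 family genes moved both ways. Of 13 listed, 12 were tested, 5 rose, 4 fell and 3 did not pass the test; their median was 0.09 on the log2 scale. BAX, the partner effector of BAK, fell 1.75-fold, with 56.6 ± 0.164 in the control and 32.3 ± 0.0938 in shp63 (CPM, SD, n = 2 each; adjusted p = 2.2e-14, edgeR with Benjamini-Hochberg), while BAK1 stood 1.07-fold higher. BBC3, which encodes the BH3-only protein PUMA, fell from 8.92 to 5.55 CPM, and BCL2L12 fell from 17.5 to 10.8 CPM. PMAIP1, which encodes the BH3-only protein NOXA that binds MCL-1, rose from 14.5 to 20.8 CPM, BOK, a BAX-like gene, rose from 19.0 to 27.2 CPM, and BCL2L14 rose from 0.811 to 2.63 CPM. BCL2L10 had 0 reads in shControl and 1 and 2 in shp63 and was not tested. Of these, BAX and BCL2L14 passed the test against a 1.5-fold change, where 22.7% of all tested genes were called.

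Of 13 genes that act on BCL2 family proteins or on their genes, 7 rose and 3 fell (median 0.09, log2). The share called, 76.9%, stands near the 74.0% of all tested genes. With library totals 4 rose and 6 fell, a setting in which calls over all tested genes also moved towards lower. FOXO3, a transcription factor that drives BCL2L11, rose 1.27-fold, with 105 ± 2.40 in the control and 133 ± 0.141 in shp63 (CPM, SD, n = 2 each). AKT1, whose kinase restrains BAD and FOXO3, rose 1.18-fold, and TRIM17, a ubiquitin ligase for MCL-1, rose from 4.62 to 6.70 CPM. PIM1, a kinase that phosphorylates BAD, fell 2.25-fold, with 17.9 ± 0.00315 CPM in shControl and 7.96 ± 0.706 CPM in shp63, and was the only regulator called against a 1.5-fold change. FBXW7, a ubiquitin ligase subunit that directs MCL-1 to degradation, fell from 31.0 to 20.7 CPM. DYNLL1, the dynein light chain that binds BIM, fell slightly from 195 to 185 CPM, a call that DESeq2 did not make (adjusted p = 0.0975) and that was lost without shControl replicate 1 (adjusted p = 0.0652), shControl replicate 2 (0.0624) or shp63 replicate 1 (0.342), in a range over the alternatives of 4.10e-05 to 1. The adjusted p was 5.18e-09 for FOXO3, 1.93e-07 for AKT1, 2.09e-05 for TRIM17, 1.19e-12 for PIM1, 7.3e-10 for FBXW7 and 0.0303 for DYNLL1 (edgeR with Benjamini-Hochberg).

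Among 15 apoptosome and caspase genes, which include CASP8 and CFLAR upstream of mitochondria, 9 were called higher and 5 lower. The share called was 93.3%, against 74.0% of all tested genes, and the median was 0.11 (log2). With library totals 6 were called higher and 5 lower. CFLAR, which encodes the caspase-8 inhibitor c-FLIP, rose 1.89-fold, with 58.3 ± 1.09 in the control and 109.9 ± 1.80 in shp63 (CPM, SD, n = 2 each). The initiator caspase gene CASP9 rose 1.53-fold. CASP8, whose product cleaves BID, fell 1.26-fold, and APAF1, the scaffold of the apoptosome, fell 1.22-fold. CFLAR passed the test against a 1.5-fold change. The adjusted p was 3.99e-15 for CFLAR, 7.41e-11 for CASP9, 2.13e-07 for CASP8 and 1.97e-06 for APAF1 (edgeR with Benjamini-Hochberg).

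Among 7 inhibitor of apoptosis genes 3 were called higher and 2 lower (71.4% called, near the 74.0% of all tested genes, median -0.06, log2). BIRC2, which encodes cIAP1, a ubiquitin ligase of TNF receptor signalling, rose 1.47-fold, with 141 ± 0.444 in the control and 206 ± 2.29 in shp63 (CPM, SD, n = 2 each), and its relative BIRC3 rose from 27.5 to 124 CPM. BIRC7 had 6 and 1 reads in shControl and 18 and 16 in shp63, so its call rests on few reads and on the filter being passed in shp63. BIRC5, which encodes survivin, a protein of mitosis as well as of survival, fell 4.01-fold, with 129 ± 2.21 CPM in shControl and 32.1 ± 0.283 CPM in shp63. XIAP, a direct caspase inhibitor, fell 1.14-fold. The adjusted p was 1.01e-13 for BIRC2, 4.49e-21 for BIRC3, 0.000572 for BIRC7, 1e-20 for BIRC5 and 0.000289 for XIAP (edgeR with Benjamini-Hochberg).

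**Figure D5:**
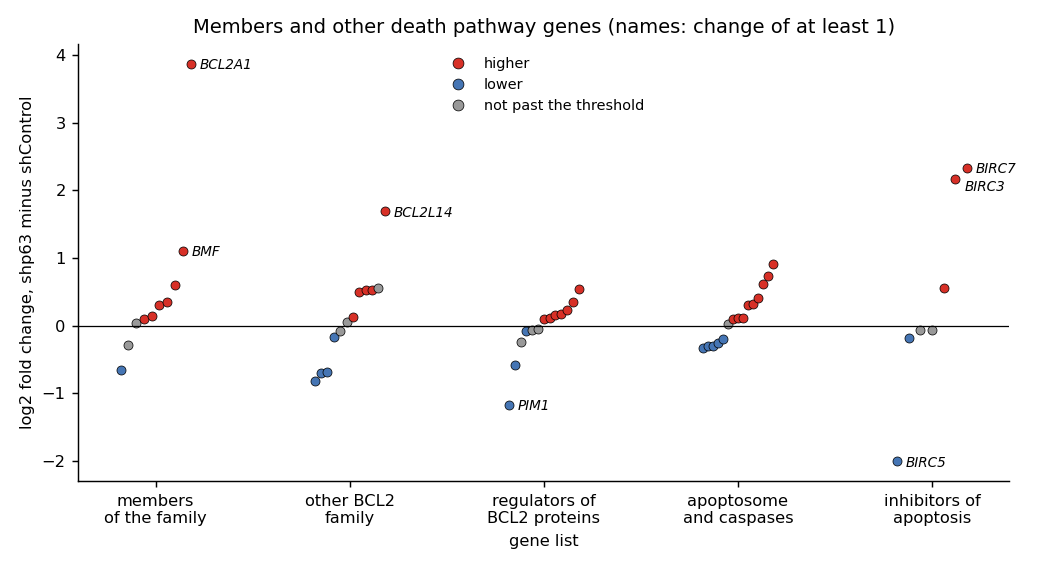
Log2 fold change (y axis, shp63 minus shControl) of the 10 members and of the tested genes of 4 further lists (x axis); each point is a gene, red if called higher, blue if called lower and grey if not called. Genes that moved by at least 1 are named: BCL2A1 (3.87) and BMF (1.11) among the members, and BCL2L14, PIM1, BIRC7, BIRC3 and BIRC5 in the other lists.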

How the data were processed

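Polyadenylated RNA from 2 shControl and 2 shp63 cultures of H226 was sequenced from stranded libraries, per the labels' protocols. The deposited table holds raw read counts per gene, as whole numbers, which the authors made with TopHat2 alignment to GRCh37 and HTSeq, per the series' design text (TopHat2 2.0.13 and HTSeq 0.6.1, per the submitters' processing notes). The gene annotation and strand setting are not given in the sources used here. The test was edgeR 4.0.16 (R 4.3.3): TMM factors, filterByExpr with a minimum count of 10, which kept 14901 genes, a robust quasi-likelihood fit with group as the only term, and Benjamini-Hochberg adjustment over all tested genes with calls at an adjusted p under 0.05. Standard errors were derived from the fold change and its F statistic. With 2 libraries against 2, an exact permutation test of 1 gene cannot go below p = 0.333, so calls rest on the spread shared across genes. The fit was also run on simulated data, with no outcome given here. Few genes were changed in that simulation, so it does not bear on TMM scaling where most genes differ. Members, gene lists and the naming rule were all chosen with earlier results of these data known. The rule names every member, up to 3 genes per direction of smallest adjusted p in each further list, listed genes not tested, the 3 genes nearest to the member with the largest rise and to that with the largest fall, and TP63 as the check of the hairpin; GPR137 and other genes sharing exons, and the cell type markers named, were added for checks. Some genes that the rule names are not reported here. Gene positions and lengths are from GENCODE v44 on GRCh37, the build of the authors' alignment. Alternatives were RLE size factors, library totals, 2 other filters, DESeq2 1.42.0, glmTreat, each library left out and replicate blocks.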

Additional observations from a re-analysis of the deposited data

How the results depend on the processing

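Across the alternatives the members' fold changes kept their direction except for BAD, which was -0.048 with library totals and -0.023 without shp63 replicate 2, neither called; it ranged from -0.023 to 0.102 when a library was left out. MCL1, BID and BCL2L11 lost their call only against a 1.5-fold change. Members called higher numbered 2 with glmTreat; members called lower numbered 2 with library totals, 0 with DESeq2 and 0 with glmTreat, and 0 to 1 when a library was left out. For the other BCL2 family genes glmTreat called 1 higher and 1 lower, for the regulators 0 higher and 1 lower, for the apoptosome and caspase genes 2 higher and 0 lower, and for the inhibitors of apoptosis 2 higher and 1 lower. With library totals 4 regulators were higher and 6 lower, where 4658 of all tested genes were higher and 6592 lower. Same-numbered libraries did not deviate together (correlation -0.24 over 14901 genes). With 2 libraries per group this is a single comparison, so it cannot show whether libraries were paired. With the replicate block 7 members were higher and 1 lower, as without it, FADD lost its call, and 10858 genes were called in all. With the crossed pairing, chosen after the data were seen, 7 members were higher and 1 lower, 5 regulators were lower, and 11387 genes were called. Without 1 library an arm held a lone sample, assumed to vary like the other group. Depth limits BCL2, BCL2A1 and BIK, which had 8 to 154 reads per library.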
